A study of Mus musculus with 6 samples.

Results

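Interferons are signalling proteins that cells release on meeting viruses or misplaced nucleic acids (type I) and that activated lymphocytes release (type II). Type I interferons bind the receptor chains Ifnar1 and Ifnar2, and type II interferon binds Ifngr1 and Ifngr2. The receptors act through Jak kinases on Stat factors. A complex that holds Stat2 and Irf9 binds the interferon-stimulated response element (ISRE) in the promoters of many antiviral genes, while type II signalling acts through the gamma-activated site (GAS). In the kidney, resident cells such as tubule epithelium and endothelium carry these receptors, and several interferon-induced genes are expressed there without infection.

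The set described here holds 48 genes of interferon signalling and response, all found among the 24346 gene symbols of the deposited data. All were chosen by name, with earlier results of these data known. They were grouped by role into receptor chains, transcription factors, nucleic acid sensors, antiviral effectors, interferon-inducible GTPases and chemokines. Kidney messenger RNA was profiled in 6 libraries, 3 for each of 2 groups of mice that had undergone unilateral nephrectomy, the removal of 1 kidney. For 1 week before the operation all mice ate a diet lacking serine, and their drinking water held 0.1% D-serine in one group and none in the other, called vehicle. The mice were killed 2 days after surgery. Both groups thus carry the operation and the diet, and mice with a sham operation were not analysed here. The sources used here do not give strain, sex or age. Nor do the labels say that every library is a separate animal, and the p-values therefore describe only how far these libraries spread.

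Values are FPKM, fragments per kilobase of transcript and scaled to the mapped fragments of the library. The spacing of low values gave a rough depth of 7200000 to 8600000 mapped fragments per library, at which 1 FPKM of a 2 kb transcript stands for about 15.7 fragments. The kidney label was borne out by its markers: Slc34a1, a phosphate transporter of the proximal tubule, lay between 2026 and 2590 FPKM, and Umod, of the thick ascending limb, between 526 and 1090 FPKM. Most T and B cell markers were near the floor, with Cd3e and Ms4a1 listed at 0 in all 6 libraries. The T cell marker Cd8a was higher, at 0.452 to 1.17 FPKM. In whole tissue, a change in the number of cells of a type and a change in RNA per cell cannot be told apart.

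No interferon gene passed the test between the groups. Limma on log2(FPKM + 1) over the 11737 genes averaging 1 FPKM or more called 9 genes at an adjusted p of 0.05 (0.0767% of genes tested, with 0.00852% higher and 0.0682% lower), and 0 of the 27 members that could be tested were among them. The lowest adjusted p of a member was 0.058, for Ifitm2. At an unadjusted p under 0.05, 12 tested members were higher with D-serine and 2 lower, against 13.1% and 14.6% of all genes tested (27.7% in either direction). The count of 9 genes depended on single libraries: with D-serine replicate 3 left out limma called 437, with D-serine replicate 1 left out 24, with D-serine replicate 2 left out 10, and with vehicle replicate 1, 2 or 3 left out 4, 3 or 2, while the count of members called was 0 in each of these 6 fits.

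The members nevertheless leaned to one side, which is a description only, since the list was chosen with earlier results of these data known. Of the 27 tested, 20 had a higher mean with D-serine and 7 a lower one, where 48.9% of all genes tested were higher, and the median log2 difference was 0.29 against -0.008 over all genes tested. In 13 members the 3 D-serine libraries all lay above the 3 vehicle libraries, and in 1 all lay below (48.1% and 3.7% of the tested members). The same held for 16.5% and 19.4% of all genes tested, 35.8% in all. Some members, such as Cxcl10 and Gbp2, reached the minimum of 1 FPKM only through their D-serine libraries. Over all 48 members, with no minimum, 14 lay wholly above and 2 wholly below, against 14.5% and 13.9% (28.4% in all) of the 17438 genes with any value above 0. Of the 48, 37 had a higher mean on the log2 scale, where 53.6% of these genes did, and the median log2 difference was 0.13 against 0.011. The median of the tested members was 0.19 without vehicle replicate 2 and lay between 0.23 and 0.33 without any other single library.

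**Figure D1:**
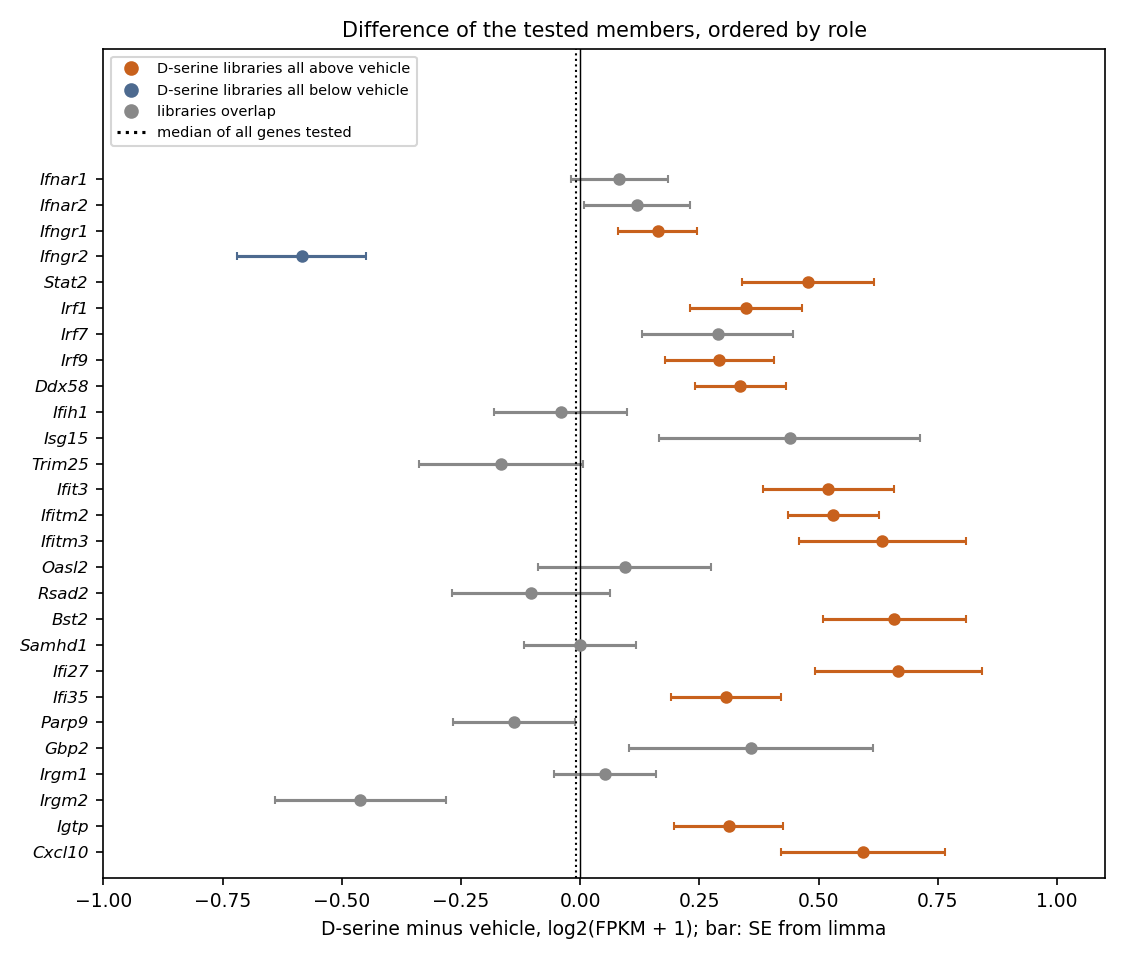
D-serine minus vehicle difference of the 27 tested members on the log2(FPKM + 1) scale, with the SE from limma, ordered by role. Orange points are the 13 members whose D-serine libraries all lay above the vehicle libraries, the blue point is Ifngr2, the 1 member wholly below, grey points are the 13 with overlapping libraries, and the dotted line is the median of all genes tested (-0.008).

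What the members share in sequence was read from RefSeq promoters (build GRCm38.p6), which were found for 38 of the 48. The 250 bases before each start were searched on both strands for 2 motifs. The ISRE was written as GAAA, any 2 bases and GAAA again, and the GAS as TTCNNNGAA. The ISRE letters stood in 18 of the 38 members (47.4%) and in 3.46% of all 27025 genes with a promoter sequence. The GAS letters stood in 11 of the 38 (28.9%) and in 8.13% of all genes. The ISRE windows below were chosen among members with a match. Ifitm2, Bst2, Ifit3, Stat2 and Cxcl10 are among the 10 tested members with the smallest unadjusted p. The rest of those 10, Ifngr2, Ifi27, Ifitm3, Ddx58 and Irf1, had no ISRE match or no promoter sequence. Igtp and Irgm2 are shown as a neighbouring pair that lay in opposite directions. Capitals mark the bases matched to the ISRE letters, read on the strand of the gene.
Ifitm2 (chr7:140955988-140956022, minus strand): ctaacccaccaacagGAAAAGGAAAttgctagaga
Bst2 (chr8:71537577-71537617, minus strand): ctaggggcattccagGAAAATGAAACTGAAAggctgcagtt
Ifit3 (chr19:34583358-34583426, plus strand): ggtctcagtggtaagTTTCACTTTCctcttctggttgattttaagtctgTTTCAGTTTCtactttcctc
Stat2 (chr10:128270261-128270295, plus strand): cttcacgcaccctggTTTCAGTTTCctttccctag
Cxcl10 (chr5:92349083-92349117, minus strand): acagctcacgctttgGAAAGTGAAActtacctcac
Igtp (chr11:58199507-58199541, plus strand): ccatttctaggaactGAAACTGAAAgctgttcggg
Irgm2 (chr11:58214898-58214932, plus strand): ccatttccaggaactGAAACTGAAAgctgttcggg

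Bst2 and Ifit3 hold 2 matches each, overlapping in Bst2. Around the match, Igtp and Irgm2 share 48 of 50 bases. Of the tested members with a promoter, 9 of 11 with the ISRE letters and 10 of 14 without them had a higher mean with D-serine, with median log2 differences of 0.44 and 0.14. For the GAS letters the order was the other way, with medians of 0.22 in 6 members with them and 0.29 in 19 without. The 11 tested members with the ISRE letters include Cxcl10 and Gbp2, which reached the minimum of 1 FPKM only through their D-serine libraries. Members with the letters but under that minimum, such as Oas3, are left out. Transcript length was not matched, and neither split was tested. A match is a run of letters and says nothing of binding in these kidneys.

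Of the 4 receptor chains, the type II chain Ifngr2 was lower with D-serine and Ifngr1 slightly higher, and neither passed. Ifngr2, the signalling chain that brings Jak2 to the type II receptor (chromosome 16, 91547072 to 91565623, mm10), was at 9.95, 9.42 and 10.2 FPKM in the vehicle libraries, against 7.13, 4.96 and 6.83 FPKM under D-serine. All D-serine libraries lay below all vehicle libraries, with replicate 2 the lowest (log2 difference -0.58 ± 0.14 SE, limma adjusted p = 0.074, n = 3 each). Ifngr1, the ligand-binding chain (chromosome 10, 19591949 to 19610229), was at 16.1, 16.1 and 16.3 FPKM in the vehicle libraries, against 17.9, 17.9 and 18.8 FPKM under D-serine. Its libraries did not overlap either, but the difference was small, 0.16 ± 0.08 on the log2 scale (limma adjusted p = 0.24). The ratio of Ifngr2 to Ifngr1 in FPKM was 0.617, 0.584 and 0.628 in the vehicle libraries, against 0.398, 0.278 and 0.363 under D-serine. With Ifngr2 wholly below vehicle and Ifngr1 wholly above, this ratio could not overlap, so it adds nothing to the values of the 2 chains.

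The type I chains overlapped between the groups. Ifnar1 was at 5.99, 5.56 and 5.10 FPKM in the vehicle libraries, against 6.19, 5.51 and 6.10 FPKM under D-serine. Ifnar2 was at 19.8, 22.0 and 23.0 FPKM in the vehicle libraries, against 23.4, 26.2 and 21.1 FPKM under D-serine. Both differences were within the spread between libraries (log2 differences 0.08 ± 0.10 and 0.12 ± 0.11 SE, limma adjusted p = 0.62 and 0.51). Ifnar2, Il10rb, Ifnar1 and Ifngr2 are neighbours on chromosome 16, from 91372783 to 91565623 on the plus strand, and Ifngr2 was the only 1 of these 4 with non-overlapping groups. Il10rb, a receptor chain shared by type III interferon and interleukin-10, had group means of 12.1 and 13.6 FPKM, vehicle first.

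All 4 transcription factors of the set had higher means with D-serine, and 3 of them had libraries that did not overlap, all higher (16.5% of all genes tested). Stat2, the Stat factor particular to type I and type III signalling, was at 3.41, 2.52 and 3.11 FPKM in the vehicle libraries, against 4.45, 5.32 and 4.01 FPKM under D-serine. On the log2 scale Stat2 differed by 0.48 ± 0.14 SE between the groups (adjusted p = 0.098 in limma). Irf9, the DNA-binding partner of Stat2, was at 5.45, 4.36 and 5.39 FPKM in the vehicle libraries, against 6.96, 6.23 and 6.05 FPKM under D-serine, and its groups also stood apart (0.29 ± 0.11, adjusted p = 0.16 in limma). Irf1, a factor induced mainly by type II interferon, was at 1.59, 1.65 and 1.87 FPKM in the vehicle libraries, against 2.52, 2.42 and 2.36 FPKM under D-serine. Its D-serine libraries were close to one another and all above vehicle (0.35 ± 0.12, adjusted p = 0.12 in limma). Irf7, which amplifies type I interferon production, was at 2.98, 1.88 and 2.204 FPKM in the vehicle libraries, against 3.36, 3.25 and 2.62 FPKM under D-serine. Vehicle replicate 1 reached into the D-serine range, so the groups overlapped (0.29 ± 0.16, adjusted p = 0.27 in limma).

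**Figure D2:**
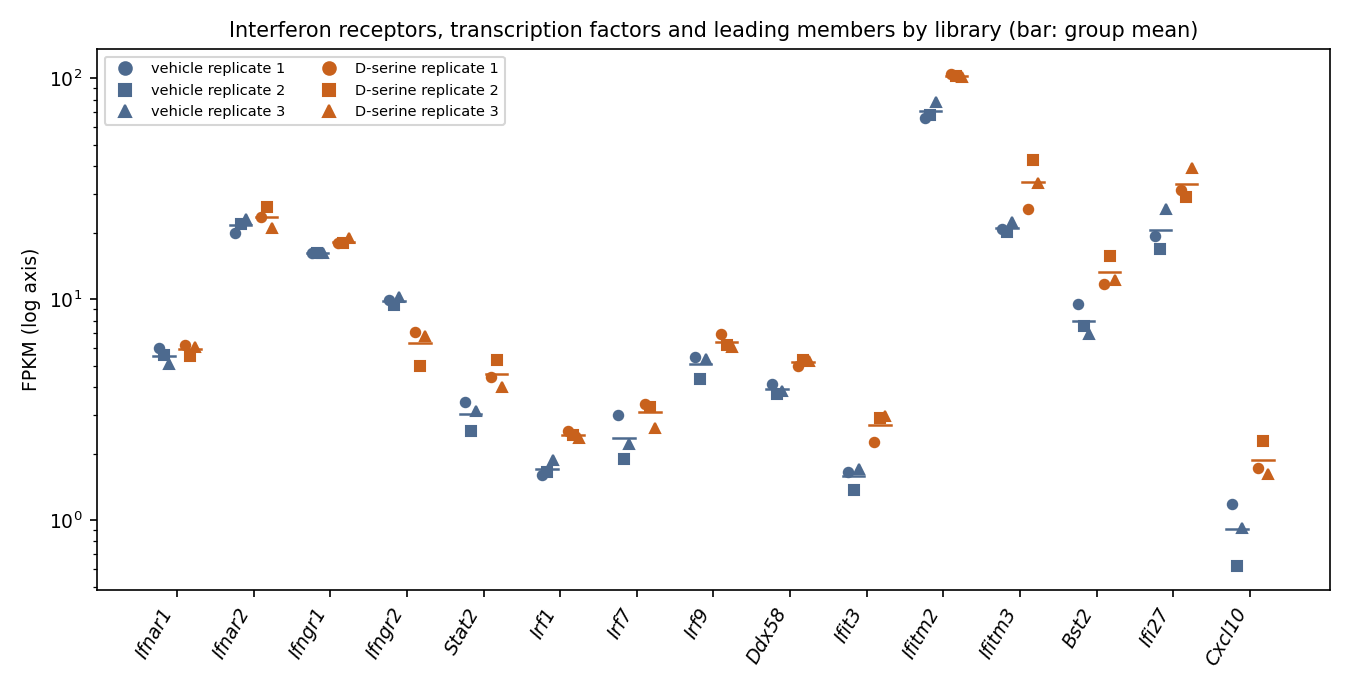
FPKM on a log axis in each of the 6 libraries for the receptor chains, the transcription factors and the members with the smallest unadjusted p, with vehicle in blue, D-serine in orange, a marker shape for each replicate and a bar at each group mean. Ifitm2 is the most abundant, at 66.2 to 78.2 FPKM with vehicle against 101 to 105 FPKM under D-serine, and Ifngr2 is the 1 gene shown whose D-serine points all lie below vehicle.

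The sensors were low, and 1 of 4 had libraries that stood apart, a share under the 28.4% of all genes above 0. Ddx58, which encodes the RNA sensor RIG-I (chromosome 4, 40203773 to 40239828), was at 4.14, 3.73 and 3.84 FPKM in the vehicle libraries, against 4.98, 5.29 and 5.27 FPKM under D-serine. All D-serine libraries were above vehicle, with 0.34 ± 0.096 SE on the log2 scale (adjusted p = 0.096 in limma). Ifih1, encoding the RNA sensor MDA5, had group means of 1.54 and 1.47 FPKM, vehicle first, and its libraries overlapped. Dhx58, encoding the regulator LGP2, and Zbp1, a sensor of Z-form nucleic acids, were under 0.75 FPKM in every library and overlapped.

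The most abundant members were the IFITM genes, whose small membrane proteins block viral fusion, and Ifitm2 had the smallest p of the set. Ifitm2 (chromosome 7, 140954837 to 140955987) was at 66.2, 68.3 and 78.2 FPKM in the vehicle libraries, against 105, 102 and 101 FPKM under D-serine. The D-serine libraries were tightly grouped, with group means of 70.9 ± 6.37 and 103 ± 1.86 FPKM (SD, n = 3 each). The log2 difference was 0.53 ± 0.096 (SE, limma adjusted p = 0.058), and the call passed under 3 other settings: adjusted p = 0.042 when small RNA genes were left out, 0.041 with weighted libraries and 0.046 with a pseudocount of 0.01 FPKM. Its range over all alternatives was 0.041 to 0.23. With the trend on transcript length and GC content removed, its log2 difference was 0.31 (adjusted p = 0.097). Ifitm3 (chromosome 7, 141009586 to 141010770) was at 20.7, 20.2 and 22.4 FPKM in the vehicle libraries, against 25.6, 42.6 and 33.6 FPKM under D-serine. The D-serine libraries were all higher but spread widely (0.63 ± 0.17, limma adjusted p = 0.091). In the annotation, 40.9% of the exon bases of Ifitm2 also belong to Gm45717 on the same strand, so fragments there cannot be assigned to 1 gene, and the 2 IFITM genes are related copies. Their summed level was 86.9 to 101 FPKM with vehicle against 130 to 145 FPKM under D-serine. Since each gene lay wholly above vehicle, the sum had to as well, and it does not settle the overlap with Gm45717.

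Among the 11 other effectors, 4 had groups that stood apart, all higher (14.5% of all genes above 0): Bst2, Ifi27, Ifi35 and Trim30a. Bst2 and Ifi35 overlapped between the groups once the trend on transcript length and GC content was removed. Trim30a, too low to be tested, averaged 0.573 and 0.661 FPKM. Bst2, or tetherin, which holds budding virions at the cell surface (chromosome 8, 71534255 to 71537456), was at 9.49, 7.56 and 6.94 FPKM in the vehicle libraries, against 11.7, 15.7 and 12.3 FPKM under D-serine (log2 difference 0.66 ± 0.15 SE, limma adjusted p = 0.074). Ifi27, a small interferon-induced membrane protein gene (chromosome 12, 103434211 to 103440239), was at 19.4, 16.9 and 25.5 FPKM in the vehicle libraries, against 31.2, 28.9 and 39.3 FPKM under D-serine (0.67 ± 0.17, limma adjusted p = 0.085). Replicate 3 was the highest in both groups for Ifi27, and D-serine replicate 2 the highest for Bst2. Ifi35 had means of 11.2 ± 0.682 and 14.1 ± 1.83 FPKM (SD), and the annotation places an antisense gene over 16.8% of its exon bases. Samhd1, which depletes deoxynucleotides, was at 4.22 and 4.23 FPKM on average, and Parp9, a mono-ADP-ribosyltransferase partner of Dtx3l, at 5.25 and 4.71 FPKM. Rsad2, encoding viperin, was at 1.33 and 1.18 FPKM. These last 3 overlapped between the groups. The other 4 effectors that overlapped averaged under 1.1 FPKM in each group: Isg20, an exonuclease, Xaf1, a pro-apoptotic factor, Ifi44, and Parp14, an ADP-ribosyltransferase.

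The genes that respond most steeply to type I interferon in other settings were low in both groups. Of the IFIT genes, whose proteins bind viral RNA, Ifit1 and Ifit2 had means under 1 FPKM and overlapping libraries. Ifit3 (chromosome 19, 34583531 to 34588731) was at 1.66, 1.36 and 1.70 FPKM in the vehicle libraries, against 2.25, 2.90 and 2.95 FPKM under D-serine (0.52 ± 0.14 on the log2 scale, limma adjusted p = 0.085). Its near-identical copy Ifit3b averaged 0.625 FPKM with vehicle against 0.360 FPKM under D-serine, and the sum of both was 2.54, 2.16 and 1.90 FPKM in the vehicle libraries, against 2.52, 3.25 and 3.42 FPKM under D-serine. This sum overlapped between the groups, and how the fragments were split between the copies is uncertain.

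Mx1 and Mx2, dynamin-like GTPases that block viral replication, were under 0.75 FPKM in every library. The genes of the oligoadenylate synthetase family, whose founding members respond to double-stranded RNA, were low too: 4 of the 5 had a mean under 1 FPKM. Oasl2, the 1 that was tested, averaged 0.960 and 1.08 FPKM and its groups overlapped. Oas3 was at 0.117, 0.0984 and 0.104 FPKM with vehicle and was listed at 0 in D-serine replicate 1 and at 0.0281 and 0.0532 FPKM in replicates 2 and 3. Its D-serine libraries lay below vehicle, but these levels stand for about 2 fragments per library. Isg15, the ubiquitin-like modifier, was at 4.06, 1.42 and 3.43 FPKM in the vehicle libraries, against 3.46, 4.85 and 4.16 FPKM under D-serine. The groups overlapped, and vehicle replicate 2 was the lowest (limma adjusted p = 0.32). Usp18, the protease that removes Isg15, averaged 0.906 ± 0.623 and 0.782 ± 0.183 FPKM (SD), its highest value being 1.63 FPKM in vehicle replicate 1. Trim25, a ubiquitin ligase that acts on RIG-I, was at 15.7 and 14.1 FPKM on average and overlapped.

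**Figure D3:**
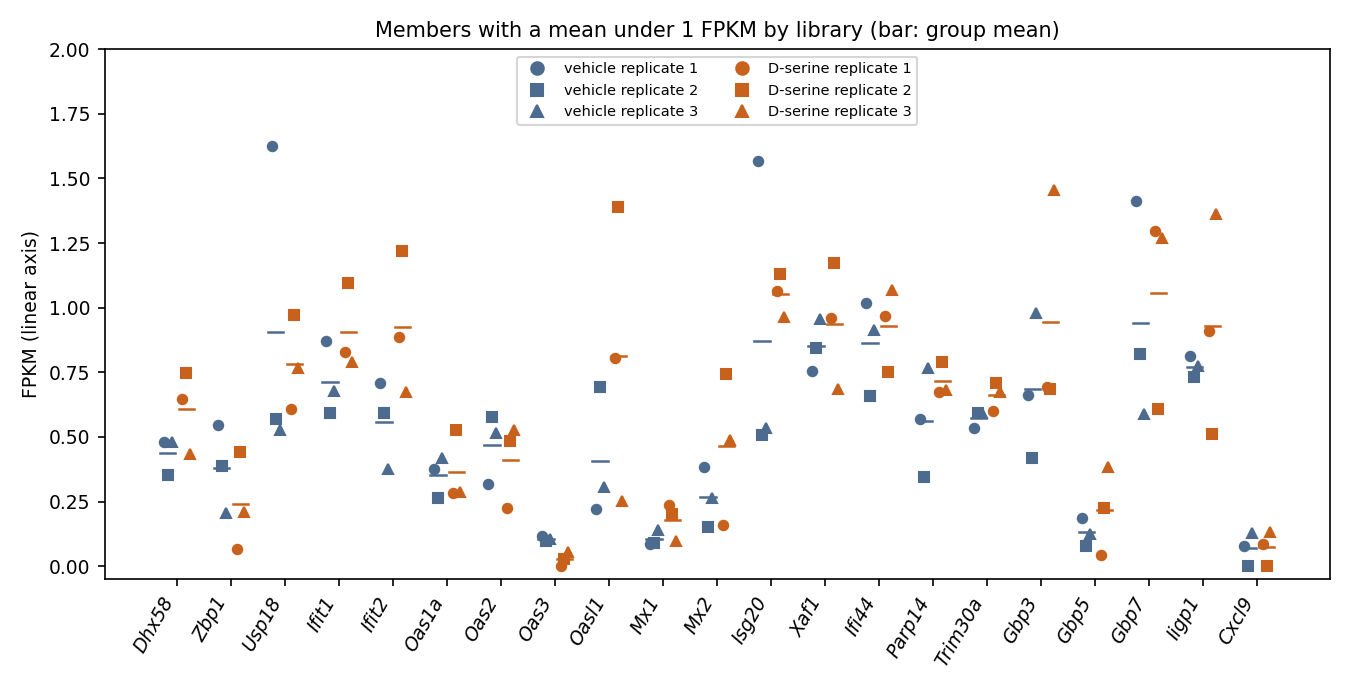
FPKM on a linear axis in each library for the 21 members with a mean under 1 FPKM, which were not tested, with vehicle in blue, D-serine in orange, a marker shape for each replicate and a bar at each group mean. The groups overlap for 19 of the 21, and Oas3 lies lower and Trim30a higher with D-serine, the latter at 0.535 to 0.593 FPKM against 0.599 to 0.711 FPKM.

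The interferon-inducible GTPases, which attack the vacuoles of intracellular pathogens and respond mainly to type II interferon, included 1 of 8 with non-overlapping libraries, which is under the 28.4% of all genes above 0 and is no result about the group. Irgm1 was the most abundant, with group means of 14.97 and 15.58 FPKM, vehicle first. Igtp was at 4.32, 4.77 and 4.91 FPKM in the vehicle libraries, against 6.86, 5.86 and 5.42 FPKM under D-serine, all higher (log2 difference 0.31 ± 0.11 SE, limma adjusted p = 0.14). Irgm2 was at 3.81, 4.23 and 2.66 FPKM in the vehicle libraries, against 2.69, 1.76 and 2.47 FPKM under D-serine, so the groups just overlapped (-0.46 ± 0.18, adjusted p = 0.15 in limma). The 2 genes lie on chromosome 11 on the same strand, and their annotated exons share 162 bases, with GENCODE gene starts at 58199556 for Igtp and 58199618 for Irgm2. The Irgm2 promoter window printed above belongs to another start, that of RefSeq, which lies further downstream inside the GENCODE gene. Their summed level overlapped between the groups, at 7.58 to 8.997 FPKM and 7.62 to 9.55 FPKM. The ratio of Irgm2 to Igtp did not, at 0.883, 0.887 and 0.542 in the vehicle libraries, against 0.392, 0.301 and 0.455 under D-serine. With Igtp wholly above vehicle and Irgm2 overlapping only between 2.66 and 2.69 FPKM, this was nearly given beforehand. The ratio thus adds little to the values of the 2 genes.

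Guanylate-binding protein genes, the larger GTPases, were low in both groups. Gbp2 was at 0.942, 0.741 and 0.574 FPKM in the vehicle libraries, against 0.844, 0.845 and 2.30 FPKM under D-serine, so its higher D-serine mean came from replicate 3. Gbp7 averaged 0.941 and 1.06 FPKM, with the highest value in vehicle replicate 1. D-serine replicate 3 also held the highest value of Gbp3, Gbp5, Iigp1 and Irgm1, which makes 5 of the 8 GTPases. For the 13 genes of the Isg15, IFIT, oligoadenylate synthetase and Mx groups the library with most of the highest values was D-serine replicate 2, with 6. Over all genes with any value above 0, D-serine replicate 2 held the highest value of 27.4% and D-serine replicate 3 of 13%.

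Of the chemokines that draw activated T cells through the receptor Cxcr3, Cxcl10 had groups that stood apart (chromosome 5, 92346638 to 92348889). It was at 1.19, 0.622 and 0.921 FPKM in the vehicle libraries, against 1.73, 2.27 and 1.61 FPKM under D-serine. The mean FPKM was 2.06 times as high with D-serine, and the log2(FPKM + 1) difference was 0.59 ± 0.17 (SE, limma adjusted p = 0.098), on about 24 fragments per library. Cxcl9 was listed at 0 in replicate 2 of each group. Its other libraries were at 0.0785 and 0.131 FPKM in the vehicle group and 0.0879 and 0.134 FPKM under D-serine, about 2 fragments each.

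The rest of the pathway was read from a list of 105 other genes in the files. The 14 interferon genes on it, among them Ifnb1 and Ifng, were listed at 0 in all 6 libraries. Of the 56 that could be tested, 0 passed limma, and 12 lay wholly above and 6 wholly below vehicle (21.4% and 10.7%, against 16.5% and 19.4% of all genes tested), with a median log2 difference of 0.09. Of the 3 Jak-family kinases, Jak1 and Jak2 lay wholly below vehicle and Tyk2 overlapped. Jak2, the kinase of Ifngr2, was at 6.60, 5.36 and 5.89 FPKM in the vehicle libraries, against 3.83, 4.62 and 4.58 FPKM under D-serine, all lower (-0.38 ± 0.12 SE, limma adjusted p = 0.11), and Jak1 was at 22.2 and 18.4 FPKM on average (adjusted p = 0.18 in limma). Tyk2, a kinase of the type I receptor, averaged 5.20 and 5.38 FPKM. The double-stranded RNA kinase gene Eif2ak2, at 2.97 and 2.50 FPKM, overlapped between the groups.

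Several other genes of the response lay with the higher members, none past the threshold. The 6 tested genes of this list wholly below vehicle (10.7%, against 19.4% of all genes tested) were Jak1, Jak2, Irf5, Stat3, Tbk1 and Ly6e. Irf5 averaged 7.42 FPKM with vehicle and 4.87 FPKM under D-serine (limma adjusted p = 0.14). Irf8, a factor of macrophages and dendritic cells, was at 2.49, 1.64 and 1.47 FPKM in the vehicle libraries, against 3.19, 4.95 and 3.32 FPKM under D-serine, the smallest p of this list (0.75 ± 0.19, limma adjusted p = 0.084). Lgals3bp, a secreted glycoprotein, was at 11.4 and 16.2 FPKM, Pml, which forms nuclear bodies, at 3.83 and 4.997 FPKM, and Ikbke, a kinase upstream of Irf3 and Irf7, at 1.25 and 1.90 FPKM. In each of these 3 all D-serine libraries were above vehicle. Irf3 was at 37.7 and 46.0 FPKM and the RNA-editing gene Adar at 3.99 and 4.85 FPKM, both without overlap (limma adjusted p = 0.16 and 0.21). Socs1, an inhibitor of Jak kinases, was listed at 0 in 2 vehicle libraries and at 0.0936 FPKM in the third. With D-serine it was at 0.235, 0.125 and 0.594 FPKM. These levels stand for about 4 fragments per library, too low to be tested.

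The differences varied with transcript length, and some cell-type markers also differed between the groups. The genes tested were split by transcript length into 4 bins of equal size, and their median log2 difference was 0.13 in the bin of shortest transcripts and -0.11 in that of the longest. The 8 tested members in the shortest bin were all higher, with a median of 0.53. The 6 in the next bin were higher too, with a median of 0.25. The 11 in the third had a median of 0.05 and the 2 in the longest bin -0.10. With the length and GC trend removed from each library, 23 of the 27 tested members were higher, and the median of the members was 0.23. The median of all genes tested was then -0.0041, and the share of them that were higher was not computed. Wholly above vehicle lay 11 members and wholly below 1, where 32.9% of all genes did either. Without the removal these counts were 13 and 1 (35.8% of all genes). The log2 differences after the removal were 0.31 for Ifitm2, 0.44 for Bst2, 0.43 for Ifitm3, 0.49 for Ifi27 and 0.16 for Ifi35. Those of Stat2 (0.51), Ddx58 (0.41), Cxcl10 (0.60) and Ifngr2 (-0.54) stayed near their uncorrected values. In that setting 0 members were called. Of the other pathway genes, Irf3 moved from 0.273 to 0.143, Jak2 from -0.377 to -0.245 and Jak1 from -0.272 to -0.176. Irf8 (0.748 and 0.765) and Adar (0.226 and 0.272) did not shrink.

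**Figure D4:**
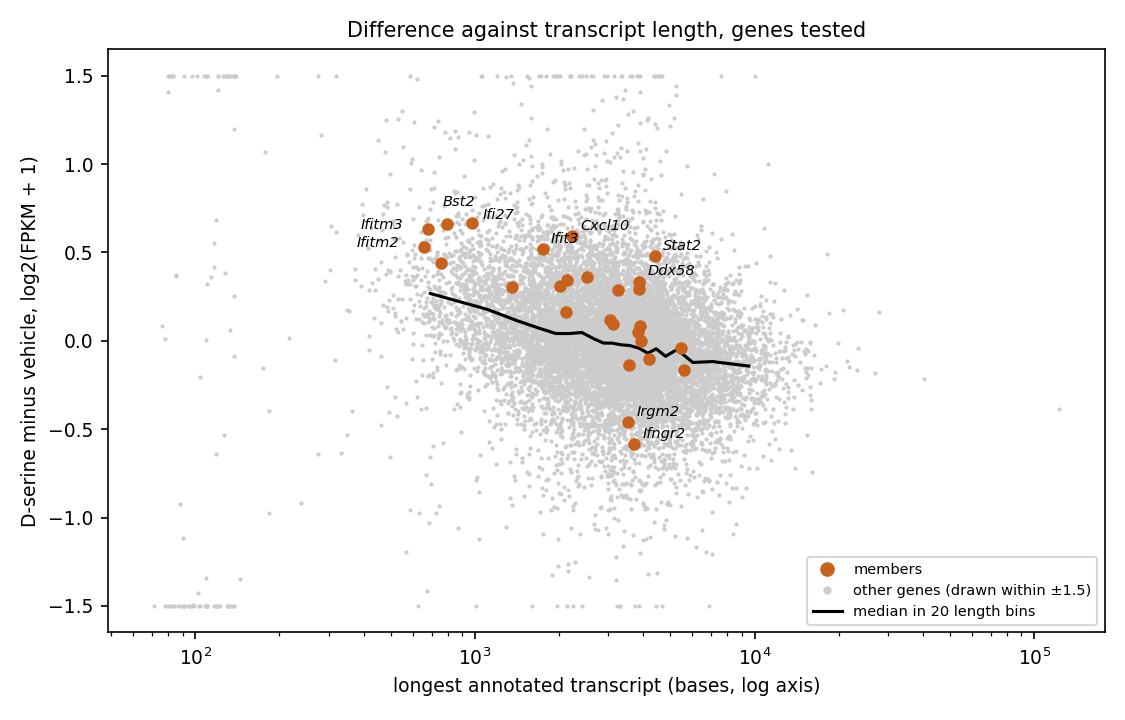
D-serine minus vehicle difference on the log2(FPKM + 1) scale against the length of the longest annotated transcript on a log axis, for the genes tested, with members in orange, other genes in grey (those past ±1.5 drawn at the edge) and the black line the median in bins of length. The short members Ifitm2, Ifitm3, Bst2 and Ifi27 sit above a median line that is itself above 0 near their length, while Stat2 and Ddx58 lie above 0 where the line is below it.

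Among the markers of other cells, the 10 macrophage and monocyte genes summed to 11.3 to 17.2 FPKM with vehicle against 11.6 to 22.1 FPKM under D-serine, and 2 of the 10, Cd68 and Ptprc, lay wholly above vehicle, where 14.5% of all genes above 0 did. Csf1r, the most abundant of the 10, lay the other way, with means of 5.79 FPKM for vehicle and 3.42 FPKM for D-serine (log2 difference -0.68, limma adjusted p = 0.14), and its groups overlapped. The 8 endothelial genes summed to 17.4 to 33.8 FPKM and 26.4 to 42.2 FPKM, with 1 of 8 wholly above, and vehicle replicate 2 was the lowest in this sum. The 4 collecting duct genes summed to 245 to 330 FPKM with vehicle against 351 to 483 FPKM under D-serine, without overlap, and 3 of the 4 lay wholly above. The 8 proximal tubule genes summed to 3440 to 3874 FPKM and 3010 to 3473 FPKM, with 2 of 8, Slc22a6 and Aqp1, wholly below (13.9% of all genes above 0). The 5 dendritic cell genes summed to 0.163 to 0.350 FPKM and 0.299 to 0.740 FPKM. Flt3 and Xcr1 lay wholly above vehicle, but on about 1 and 4 fragments per library, too few to read as a difference. The 7 T and NK cell genes summed to 1.17 to 1.51 FPKM and 0.493 to 1.43 FPKM, most of it from Cd8a. The part of these cell types in the levels of the interferon genes was not tested.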

How the data were processed

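Per the labels' protocols, kidney RNA came from a TRIzol extraction and libraries from the TruSeq stranded mRNA kit. Per the submitters' processing notes, TopHat2 2.0.13, Bowtie2 2.2.3, SAMtools 0.1.19 and Cufflinks 2.2.1 were used on mouse build mm10. For each sample the authors deposited a table of values per gene, taken here as FPKM from the use of Cufflinks, since its header names no unit. Annotation, read length and strand setting: not given in the sources used here. FPKM keeps no counts, so no count test was run, and an exact 0 is reported as listed at 0.

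The groups were compared with limma 3.58.1 in R 4.3.3 (lmFit, eBayes with a mean-variance trend, two-sided) on log2(FPKM + 1), which understates differences of low genes. Genes averaging 1 FPKM or more across all 6 libraries entered the test, with p-values adjusted over all of them by Benjamini-Hochberg (threshold 0.05). An exact permutation test of 3 against 3 cannot go below 0.1 and was not used. Depth was estimated from the most frequent ratio between libraries of values that stand for few fragments, and the total from the step size of genes with 1 annotated transcript. Positions, lengths, GC content and exon overlap came from GENCODE M21 (mm10), which matched all 48 members and 96.4% of genes tested. The fit was tested on simulated data.

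The members and lists were chosen with earlier results of these data known. Values per library were given for the receptor chains, transcription factors, the 10 tested members with the smallest unadjusted p, the 5 most abundant members, and members listed at 0 in any library; of the other pathway genes, for the 6 with the smallest p or for 8 signalling genes, by mean or per library, except 2 that are not reported here. Igtp, Irgm2, Isg15, Gbp2, Ifi35, Usp18, Trim30a, Il10rb, Ifit3b, Irf5, Stat3, Tbk1 and Ly6e were picked out after their values were seen. Alternatives were other pseudocounts, minimums and scalings, no trend, weighted libraries, a replicate block, no small RNA genes, each library left out in turn and, added after seeing the data, removal of a loess trend (span 0.5) on length and GC content.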

Additional observations from a re-analysis of the deposited data

How the results depend on the processing

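The absence of calls among the 27 tested members held in 15 of 18 alternatives. With a pseudocount of 0.01 FPKM, with weighted libraries and with small RNA genes left out 1 member was called, Ifitm2, with log2 differences of 0.54, 0.54 and 0.53. For the 105 other pathway genes the count of calls was 0 in all 18. The 15 members followed one by one kept their direction in every alternative in which they were tested, and Ifitm2 was the only 1 to cross the threshold. The median log2 difference of the tested members, 0.29, was 0.34 with a pseudocount of 0.1 (0.338) or 0.01 (0.343), 0.13 with no minimum, 0.24 with quantile normalization, 0.23 after removal of the length and GC trend and between 0.19 and 0.33 (0.185 to 0.325) without 1 library. Members whose groups did not overlap numbered 14 of 27 (35.8% of all genes), and 9 of the 13 tested with a minimum of 5 FPKM (39% of all genes). The count over all genes, 9, was 171 and 221 with pseudocounts of 0.1 and 0.01, 132 with a minimum of 5 FPKM, 15 with median-of-ratios scaling, 269 with weighted libraries, 333 without small RNA genes, 2 with the replicate block, and 2 to 437 without 1 library. The causes were not tested. The replicate numbers did not pair the libraries: same-numbered deviations correlated at -0.070, 0.003 and 0.067, and no vehicle library but replicate 3 correlated best with its own number. With the replicate block, 10 members had an unadjusted p under 0.05 in limma against 14 without it, and 0 were called. Over all 11737 genes tested this count fell as well, from 3253 to 2665 with the block. Depth limits the members under 1 FPKM most, such as Oas3 and Cxcl9, at about 2 fragments per library, for which no interval was computed.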
